A study of Homo sapiens with 6 samples.

Results

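The genes described here are 41 human genes of mitosis and of the step from G2 into mitosis, among them the cyclin B-CDK1 kinase, the spindle checkpoint, the kinetochore, mitotic kinesins and the cytokinesis machinery. They were matched by gene symbol to a list of mitotic genes, and all 41 were found among the 60483 gene IDs listed and passed the filter on low counts, which left 14965 genes for testing. RNA-seq was performed on 253J cells, an established human bladder cancer cell line. In 3 libraries the cells were transfected with siRNA against FTO, an RNA demethylase that removes m6A (siFTO, replicates 4, 5 and 6). The other 3 libraries were labelled control (replicates 1, 2 and 3). Both groups are 253J cells without any other allele or agent named in the labels. The methods of the study describe shRNA in place of siRNA, which the labels do not settle. Whether each library stands for a culture of its own is not stated, and the p-values cover the spread between these libraries alone, which may be technical.

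Mitosis is driven by the kinase CDK1 once it has bound cyclin B and been freed of its inhibitory phosphates by CDC25 phosphatases. The spindle checkpoint then holds back the anaphase-promoting complex until every kinetochore is attached, after which the complex, with CDC20, marks cyclin B and securin for destruction, separase cuts cohesin, and the cell divides through an actin ring organised at the central spindle. Many of these genes are transcribed mainly late in the cell cycle, through the DREAM and MuvB complexes, MYBL2 and FOXM1. These factors act at short promoter letters known as the CHR (cell cycle homology region). Many promoters of such genes also hold CCAAT boxes. The summed RNA of the genes is often read as a sign of dividing cells.

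FTO itself stood at 20.2, 20.7 and 15.7 CPM (counts scaled to a common library size, with TMM factors) in siFTO replicates 4, 5 and 6, against 31.8, 21.4 and 31.2 CPM in control replicates 1, 2 and 3. The log2 fold change of siFTO over control was -0.57 (SE 0.165, edgeR adjusted p = 0.0209), and the call was lost when control replicate 1 (adjusted p = 0.107) or control replicate 3 (adjusted p = 0.113) was left out. Total counts ranged from 13162731 to 15709975 in siFTO libraries and from 10991789 to 19891269 in control libraries. In siFTO replicates 4 and 5, the summed level of 12 fibroblast and mesenchymal markers was 2034 and 2506 CPM, with 7 of 12 at 10 CPM or more in each. In siFTO replicate 6 it was 36.9 CPM and in the controls 23.9 to 25.5 CPM, and COL3A1, LUM, DCN and THY1 were at 0 in those 4 libraries. A set of 7 leukocyte markers summed to 65.8 and 79.8 CPM in siFTO replicates 4 and 5. The sum was 5.98 CPM in siFTO replicate 6 and 3.82 to 4.93 CPM in the controls. In siFTO replicates 4 and 5, only 1 of the 7 was at 10 CPM or more and 2 were at 1 CPM or more. CD3E was at 0 in every library, TYROBP was at 0 in siFTO replicates 4 and 5, and PTPRC in siFTO replicate 5. All 5 epithelial markers reached 10 CPM in every library, whereas of 8 urothelial markers only PPARG did, and UPK1B was at 0 throughout. Because of siFTO replicates 4 and 5, the values of replicate 6 are given apart from theirs below.

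The promoters of 5 members are shown because they carry the letters discussed at the end of these results and belong to members that moved up (ANLN and BUB1B), moved down (CCNB2 and PTTG1) or stayed level (CCNB1). Each line gives the 250 bases before the annotated start, 5′ to 3′ in the direction of the gene, from RefSeq on GRCh38.p14, with TTTGAA or TTCGAA and CCAAT, on either strand, in capitals. The windows are chr7:36389612-36389861 (+ strand) for ANLN, chr15:40160819-40161068 (+) for BUB1B, chr15:59104896-59105145 (+) for CCNB2, chr5:160421605-160421854 (+) for PTTG1 and chr5:69166900-69167149 (+) for CCNB1.
ANLN: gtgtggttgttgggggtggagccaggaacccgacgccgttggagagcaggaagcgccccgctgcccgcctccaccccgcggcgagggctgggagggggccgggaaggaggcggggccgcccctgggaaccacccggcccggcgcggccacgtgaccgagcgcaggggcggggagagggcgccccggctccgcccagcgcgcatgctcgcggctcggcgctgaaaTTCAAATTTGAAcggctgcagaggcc
BUB1B: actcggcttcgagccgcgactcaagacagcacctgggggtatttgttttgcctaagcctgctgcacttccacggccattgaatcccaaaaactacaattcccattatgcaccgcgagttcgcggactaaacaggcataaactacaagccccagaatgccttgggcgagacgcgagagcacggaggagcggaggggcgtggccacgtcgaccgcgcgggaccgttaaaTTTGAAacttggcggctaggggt
CCNB2: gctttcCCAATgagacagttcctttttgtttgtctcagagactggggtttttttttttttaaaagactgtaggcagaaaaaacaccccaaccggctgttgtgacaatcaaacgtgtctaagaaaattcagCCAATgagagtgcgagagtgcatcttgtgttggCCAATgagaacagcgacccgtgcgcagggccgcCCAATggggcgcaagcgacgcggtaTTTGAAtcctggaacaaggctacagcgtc
PTTG1: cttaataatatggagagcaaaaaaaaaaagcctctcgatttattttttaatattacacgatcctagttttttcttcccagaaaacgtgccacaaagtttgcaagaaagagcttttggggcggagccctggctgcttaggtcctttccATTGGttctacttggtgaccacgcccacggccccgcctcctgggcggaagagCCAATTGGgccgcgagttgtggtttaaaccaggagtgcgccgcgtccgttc
CCNB1: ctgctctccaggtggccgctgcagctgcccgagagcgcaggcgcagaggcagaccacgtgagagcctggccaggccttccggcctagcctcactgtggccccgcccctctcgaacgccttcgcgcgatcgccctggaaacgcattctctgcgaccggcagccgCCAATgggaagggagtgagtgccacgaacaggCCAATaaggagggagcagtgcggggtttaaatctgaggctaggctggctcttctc

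The 41 genes did not move together. The largest increase in siFTO cells was that of ANLN, the anillin of the contractile ring, at 1.98 times its control level, followed by KIF14 and BUB1B at 1.63 and 1.56 times. The largest decreases were those of CDC25C, PTTG1 and CCNB2, at 0.664, 0.692 and 0.745 times their control levels. By the quasi-likelihood test of edgeR, with p-values adjusted by Benjamini-Hochberg over all genes tested, 9 of 41 (22%) were higher in siFTO cells, 6 (14.6%) were lower and 26 did not pass. Over all genes tested, 19.5% were higher and 17.9% were lower, so neither share stood far from that of genes at large. The median log2 fold change was 0.04 over the members and 0.01 over all genes tested. In 16 of 41 members (39%) all siFTO libraries lay above all controls and in 9 (22%) below, against 25.8% and 25.6% of all genes tested, and in the other 16 the groups overlapped. In RNA from a whole culture, fewer cells in a phase of the cycle and less RNA per cell cannot be told apart.

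**Figure D1:**
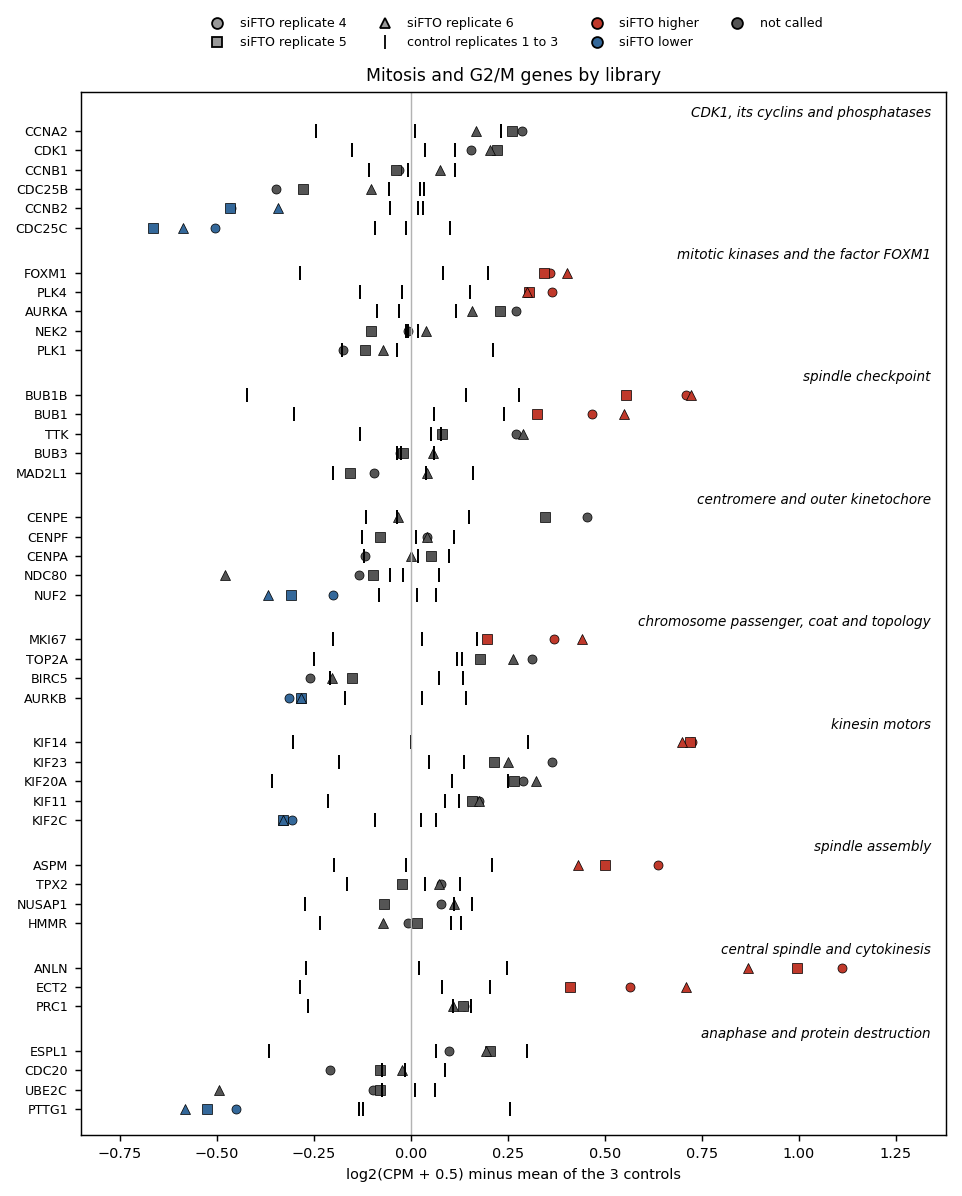
Level of each of the 41 members in each library, as log2(CPM + 0.5) minus the mean of the 3 controls, grouped by role. Filled symbols are the 3 siFTO libraries, coloured by the edgeR call, and vertical ticks are the 3 controls. The symbols of ANLN, KIF14 and BUB1B lie to the right of every control tick and those of CDC25C and PTTG1 to the left, whereas those of CCNB1 and CENPF lie among the ticks.

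The genes that start mitosis pointed in different directions. CDK1, the kinase itself, stood at 110.8, 116.1 and 114.7 CPM in siFTO cells, against 102.1, 89.5 and 107.7 CPM in control cells. Each siFTO library lay above each control, but the log2 fold change of 0.19 did not pass (adjusted p = 0.114 in edgeR). CCNB1, its main cyclin, was at 250.7, 249.8 and 270.1 CPM in siFTO cells, against 255.0, 237.8 and 277.3 CPM in control cells, with overlapping groups and a log2 fold change of 0.00. CCNB2, the second B-type cyclin, was at 122.0, 121.9 and 132.7 CPM in siFTO cells, against 170.7, 162.5 and 172.4 CPM in control cells. All siFTO libraries were below all controls for CCNB2 (chr15:59105078-59125045, + strand), and the log2 fold change was -0.42 (SE 0.0799, edgeR adjusted p = 0.00335).

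CDC25C, a phosphatase that activates CDK1, had the largest decrease among the members. Its level was 50.9, 45.5 and 48.0 CPM in siFTO cells, against 67.9, 77.7 and 71.8 CPM in control cells. The groups were far apart, with a log2 fold change of -0.59 (SE 0.0916, edgeR adjusted p = 0.00153). CDC25C (chr5:138285265-138338355, - strand) overlaps FAM53C on the opposite strand, by 293 annotated bases in the largest overlap of a pair of exons. Since the strand setting of the counting is not given, reads of that stretch cannot be assigned. For CDC25B, a related phosphatase, the log2 fold change was -0.24 (adjusted p = 0.0577 in edgeR), and for CCNA2, the cyclin of S phase and early mitosis, it was 0.23 (adjusted p = 0.144 in edgeR). The counts of CCNA2, FOXM1, KIF20A, CENPA and ANLN carry a like uncertainty, since 250 annotated bases of CCNA2 overlap EXOSC9, 651 of FOXM1 overlap ITFG2, 132 of KIF20A overlap BRD8, 138 of CENPA overlap SLC35F6 and 78 of ANLN overlap KIAA0895. The levels of both B-type cyclins can be set against each other within a library because their exonic lengths, 2801 bases for CCNB2 and 2558 for CCNB1, are close. The log2 ratio of CCNB2 to CCNB1 was -1.04, -1.03 and -1.03 in siFTO cells, against -0.58, -0.55 and -0.69 in control cells, a pair chosen after its values were seen.

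Among the mitotic kinases and the factor FOXM1, 2 of 5 were higher and none was lower, numbers too small to set against the 19.5% and 17.9% of all genes tested. FOXM1, a transcription factor of late cell cycle genes, stood at 194.3, 192.2 and 200.3 CPM in siFTO cells, against 160.5, 124.2 and 173.9 CPM in control cells (log2 fold change 0.36, SE 0.117, edgeR adjusted p = 0.036). PLK4, the kinase that starts centriole duplication, was at 40.8, 39.1 and 39.0 CPM in siFTO cells, against 31.1, 28.8 and 35.1 CPM in control cells (log2 fold change 0.32, SE 0.0998, edgeR adjusted p = 0.0288). In both genes the siFTO libraries lay above the controls, but both calls were lost when control replicate 1 or 2 or siFTO replicate 4 or 5 was left out. AURKA, the spindle pole kinase, had a log2 fold change of 0.22, NEK2, a centrosome kinase, one of -0.02, and PLK1, a kinase of entry, spindle and cytokinesis, one of -0.13, and none passed.

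Of the 5 spindle checkpoint genes, BUB1 and BUB1B were higher in siFTO cells. BUB1B, which encodes BubR1, an inhibitor of the anaphase-promoting complex, stood at 93.0, 83.4 and 93.7 CPM in siFTO cells, against 62.6, 42.1 and 68.8 CPM in control cells (log2 fold change 0.64, SE 0.155, edgeR adjusted p = 0.0104). BUB1, the checkpoint kinase at the kinetochore, was at 161.9, 146.7 and 171.5 CPM in siFTO cells, against 122.1, 95.0 and 138.2 CPM in control cells (log2 fold change 0.43, SE 0.129, edgeR adjusted p = 0.0239). Control replicate 2 was the lowest library for both. The remaining checkpoint genes did not pass: TTK, the kinase at the head of the checkpoint, had a log2 fold change of 0.22, MAD2L1, which binds CDC20, one of -0.08, and BUB3, the partner of BUB1 and BubR1, one of 0.00.

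At the centromere and outer kinetochore, NUF2 was lower and no member was higher. NUF2, a subunit of the NDC80 complex that holds microtubules, stood at 47.9, 44.3 and 42.6 CPM in siFTO cells, against 52.0, 57.7 and 55.7 CPM in control cells (log2 fold change -0.30, SE 0.091, edgeR adjusted p = 0.0277). For its partner NDC80 the log2 fold change was -0.23 (adjusted p = 0.134 in edgeR). CENPF, a large protein of the outer kinetochore, was at 292.0, 268.5 and 292.4 CPM in siFTO cells, against 286.6, 260.0 and 306.5 CPM in control cells, and its log2 fold change was 0.00 with overlapping groups. CENPA, the centromeric histone, had a log2 fold change of -0.02, and CENPE, a kinetochore kinesin, one of 0.27, which came from siFTO replicates 4 and 5 (47.7 and 44.2 CPM) and not from replicate 6 (33.9 CPM), against 32.0, 33.8 and 38.5 CPM in control cells.

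MKI67, which encodes the Ki-67 coat of mitotic chromosomes and is a standard mark of proliferating cells, stood at 778.9, 690.8 and 818.1 CPM in siFTO cells, against 615.5, 524.2 and 678.9 CPM in control cells. The groups were barely separated, with the lowest siFTO library above the highest control, and the log2 fold change was 0.33 (SE 0.11, edgeR adjusted p = 0.0368). AURKB, the kinase of the chromosome passenger complex, was at 119.3, 121.9 and 122.0 CPM in siFTO cells, against 131.8, 163.8 and 151.4 CPM in control cells (log2 fold change -0.30, SE 0.0928, edgeR adjusted p = 0.028). Its partner BIRC5, or survivin, had a log2 fold change of -0.21 and TOP2A, the topoisomerase that untangles sister chromatids, one of 0.24, neither past the threshold.

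The kinesin motors split as well. KIF14, a kinesin of the central spindle and midbody (chr1:200551497-200620734, - strand), stood at 25.5, 25.4 and 25.1 CPM in siFTO cells, against 15.3, 12.3 and 18.9 CPM in control cells (log2 fold change 0.71, SE 0.147, edgeR adjusted p = 0.00521). KIF2C, which takes microtubules apart at the kinetochore, was at 114.5, 112.6 and 112.5 CPM in siFTO cells, against 132.8, 148.2 and 144.1 CPM in control cells (log2 fold change -0.32, SE 0.0792, edgeR adjusted p = 0.0105). In both genes the siFTO libraries were close together and the controls spread more widely. KIF11, the motor that pushes the poles apart, had a log2 fold change of 0.16, and the central spindle motors KIF20A and KIF23 had 0.27 each (adjusted p = 0.134 and 0.051 in edgeR).

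Among the spindle assembly genes, ASPM was the only one past the threshold. ASPM, a protein of the spindle pole, was at 90.1, 81.9 and 78.1 CPM in siFTO cells, against 57.3, 50.3 and 66.8 CPM in control cells (log2 fold change 0.52, SE 0.113, edgeR adjusted p = 0.00643). TPX2, which activates AURKA on the spindle, had a log2 fold change of 0.04, NUSAP1, which bundles microtubules, one of 0.03, and HMMR, a spindle pole adaptor, one of -0.03.

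The genes of the cleavage furrow included the largest increase. ANLN, which encodes anillin, the scaffold of the contractile ring (chr7:36389806-36453791, + strand), stood at 133.6, 123.0 and 112.8 CPM in siFTO cells, against 62.4, 51.0 and 73.2 CPM in control cells (log2 fold change 0.98, SE 0.127, edgeR adjusted p = 0.000794). ECT2, the exchange factor that switches on RhoA at the cell equator, was at 179.3, 161.0 and 198.1 CPM in siFTO cells, against 127.9, 99.3 and 139.6 CPM in control cells (log2 fold change 0.55, SE 0.128, edgeR adjusted p = 0.0083). For both, every siFTO library was above every control. PRC1, the crosslinker of the central spindle, had a log2 fold change of 0.12 with overlapping groups.

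At anaphase onset, PTTG1 fell while its target did not pass. PTTG1, or securin, which keeps separase inactive until anaphase, was at 185.6, 176.2 and 169.3 CPM in siFTO cells, against 232.8, 303.2 and 231.2 CPM in control cells (log2 fold change -0.53, SE 0.113, edgeR adjusted p = 0.00575). Few reads were counted for its near-identical copies, with 7 counts for PTTG2 and 0 for PTTG3P over all libraries. How reads that match several copies were handled is not given, so any reads of PTTG1 lost in that way cannot be seen. ESPL1, or separase, had a log2 fold change of 0.14, and CDC20, the activator of the anaphase-promoting complex, one of -0.10. UBE2C, the ubiquitin-conjugating enzyme of that complex, was at 159.5, 161.6 and 121.0 CPM in siFTO cells, against 162.3, 172.0 and 178.3 CPM in control cells, so that replicate 6 stood apart from the other siFTO libraries (log2 fold change -0.21, SE 0.114, edgeR adjusted p = 0.162).

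**Figure D2:**
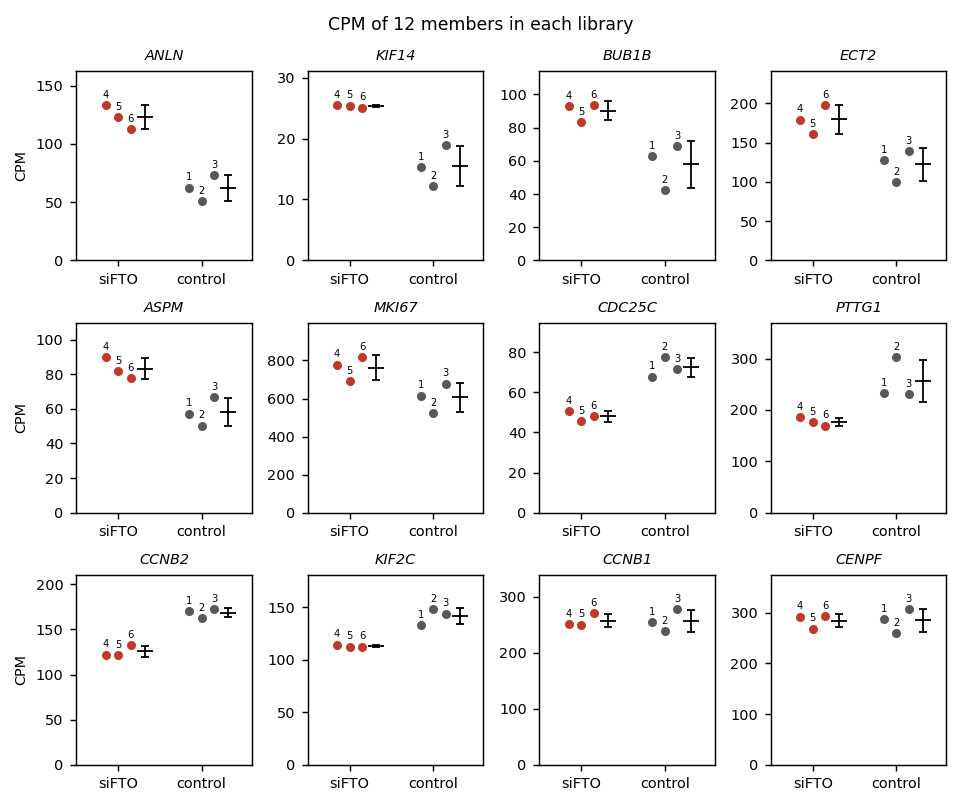
CPM of 12 members in each library, on axes that start at 0, with siFTO libraries (red, replicates 4, 5 and 6) left of control libraries (grey, replicates 1, 2 and 3). Bars are the mean ± SD of 3 libraries. ANLN, KIF14, BUB1B, ECT2, ASPM and MKI67 lay higher in siFTO cells, CDC25C, PTTG1, CCNB2 and KIF2C lower, and CCNB1 and CENPF overlapped. Control replicate 2 was the lowest library for ANLN, KIF14, BUB1B, ECT2, ASPM, MKI67, CCNB1 and CENPF.

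Levels were also scaled by length, as RPKM over all annotated exonic bases of a gene. On that scale CDC20 was highest, at 174 ± 11.4 in siFTO cells and 187 ± 10.8 in control cells (SD, n = 3 each). KIF14 was lowest, at 3.48 ± 0.0333 in siFTO cells and 2.13 ± 0.458 in control cells. The order depends on the length used. PTTG1 has 2013 exonic bases but a longest annotated transcript of 1070, whereas TPX2 has 3605 by either measure. Levels per longest transcript were not computed. In siFTO cells UBE2C followed at 115 ± 17.8 RPKM and TPX2 at 111 ± 4.31 RPKM. In control cells UBE2C had 133 ± 6.29 RPKM and PTTG1 127 ± 20.4 RPKM, neighbours that did not differ beyond their spread. Over exonic bases, the level of PTTG1 in siFTO cells was 88.0 ± 4.07 RPKM, below that of TPX2. In control cells TPX2 had 108 ± 10.9 RPKM, which does not differ from PTTG1 beyond the spread. ANLN was at 20.5 ± 1.73 RPKM in siFTO cells and 10.3 ± 1.85 RPKM in control cells.

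Longer members tended to be higher and shorter ones lower, and this was also true of genes at large. Over 14887 genes with an exonic length, the log2 fold change and log2 length had a Pearson correlation of 0.26 and a Spearman correlation of 0.33, and over the 41 members, which share the same 6 libraries, of 0.53 and 0.60. Genes under 1500 bases had a median log2 fold change of -0.36 and genes of 9000 bases or more one of 0.23. Of the 10 members under 3000 bases, none was called higher and 3 were called lower (CCNB2, AURKB and PTTG1), while of the 11 members of 6000 bases or more, 5 were higher (ASPM, MKI67, KIF14, BUB1 and ANLN) and none was lower. Over all genes tested, 27.5% of those under 1500 bases and 26.3% of those from 1500 to 3000 bases were lower, and 27.5% of those from 6000 to 9000 bases and 37.3% of those of 9000 bases or more were higher, so the members' calls by length were near those of genes at large. The slope on length was present in every siFTO library, at 0.14, 0.12 and 0.12 log2 units per doubling of length in replicates 4, 5 and 6, against 0.02, -0.05 and 0.03 in control replicates 1, 2 and 3. Whether the slope came from the cells, the RNA or the libraries was not tested.

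**Figure D3:**
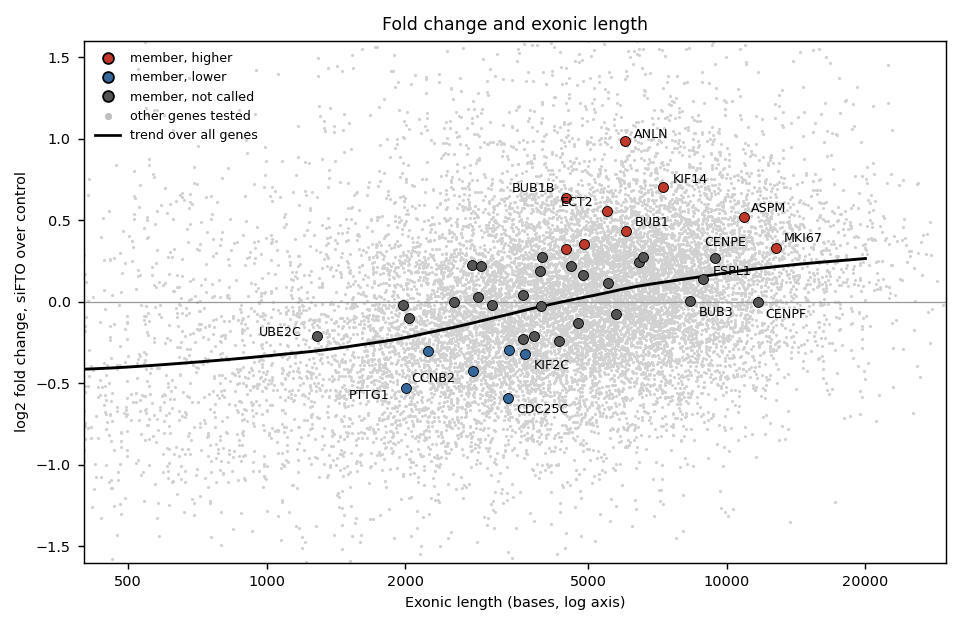
Log2 fold change of siFTO over control against exonic length in bases (log axis). Grey points are all genes tested with a length, the line is their smoothed trend, and large points are the members, coloured by call; genes beyond the axis limits are not drawn. Members called lower sit at 2013 to 3646 bases and those called higher at 4476 to 12807 bases, and ANLN, BUB1B and KIF14 lie well above the line, while CENPF lies below it.

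When each library's trend on length was removed before the test, 10 of 41 members (24.4%) were higher and 4 (9.76%) were lower, against 18% and 16.3% of all genes tested in that way. Of the 9 higher calls, 8 remained and MKI67 did not, and AURKA and CCNA2 were added. For AURKA the log2 fold change was then 0.34 (edgeR adjusted p = 0.0156) and for CCNA2 it was 0.36 (edgeR adjusted p = 0.0495). Among the lower members, CDC25C, PTTG1, CCNB2 and KIF2C remained and AURKB and NUF2 did not. With GC content removed as well, 6 members (14.6%) were higher and 6 (14.6%) lower, against 19% and 15.3% of all genes.

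The longest members behaved unlike one another under this correction. MKI67, with 12807 bases the longest, was left with a log2 fold change of 0.13 (edgeR adjusted p = 0.302), so its call did not hold beside genes of like length. ASPM, with 10887 bases, kept 0.34 (edgeR adjusted p = 0.0227), but did not pass with GC content removed too (adjusted p = 0.065). CENPF, with 11690 bases, went to -0.19 (edgeR adjusted p = 0.0805) and, with GC content, to -0.27 (adjusted p = 0.0157). The log2 ratio of ASPM to CENPF, a pair of like length chosen after its values were seen, was -1.70, -1.71 and -1.91 in siFTO cells, against -2.32, -2.37 and -2.20 in control cells. UBE2C, with 1286 bases the shortest, went to 0.09 (edgeR adjusted p = 0.61).

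The members called in all 3 analyses, without correction, with length and with length and GC content, were ANLN, KIF14, BUB1B, ECT2 and FOXM1 among the higher, and CDC25C, PTTG1, CCNB2 and KIF2C among the lower. With length removed, the log2 fold change of ANLN was 0.92 (SE 0.119, edgeR adjusted p = 0.000763), that of KIF14 was 0.60 (SE 0.136, adjusted p = 0.00834), that of CDC25C was -0.50 (SE 0.0853, adjusted p = 0.00228) and that of PTTG1 was -0.30 (SE 0.0901, adjusted p = 0.0276). PTTG1, at -0.53 without correction, was then close to CCNB2, at -0.29 (SE 0.0837, adjusted p = 0.0238). With offsets on the longest annotated transcript in place of all exons, PTTG1 did not pass at -0.23 (edgeR adjusted p = 0.0541), nor did ASPM at 0.23 (edgeR adjusted p = 0.0814) or PLK4 at 0.26 (edgeR adjusted p = 0.0517).

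**Figure D4:**
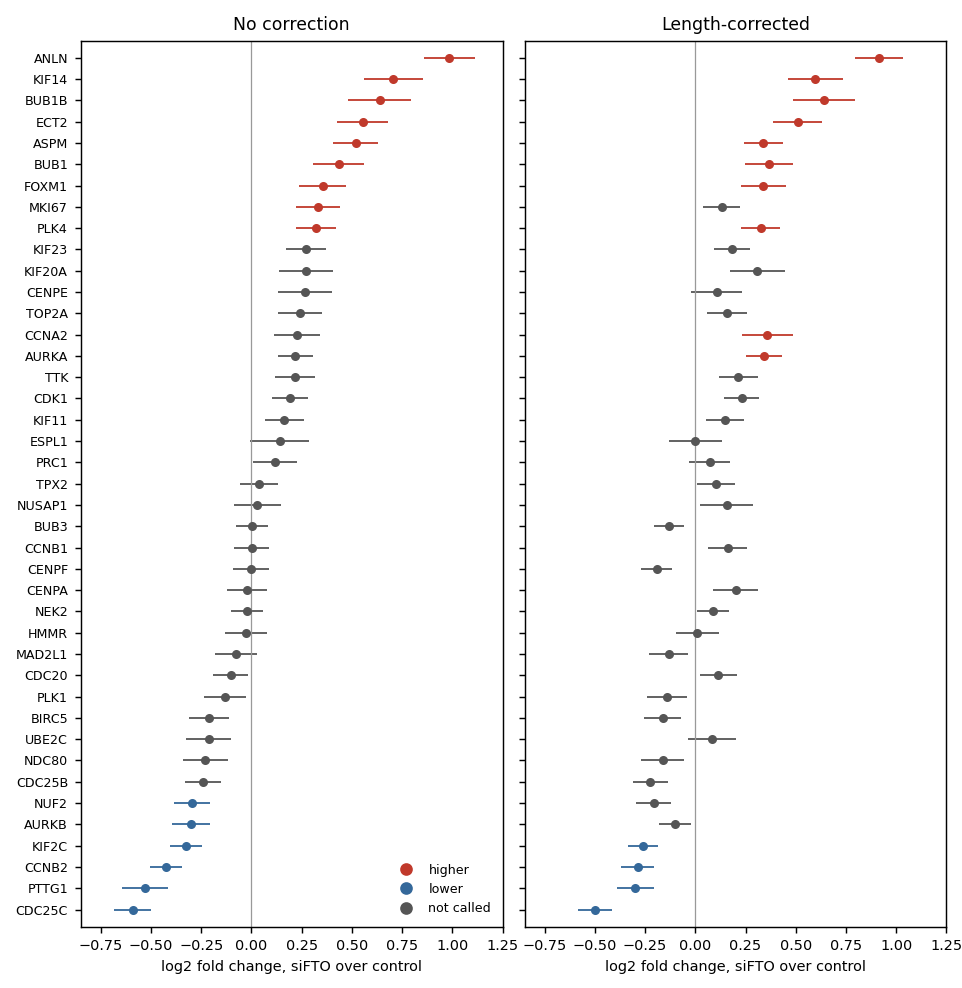
Log2 fold change of siFTO over control for the 41 members without correction (left) and with each library's trend on exonic length removed (right), with bars of 1 SE. Colours mark members called higher (red), lower (blue) or neither (grey) in each analysis. MKI67, AURKB and NUF2 lose their colour on the right, and AURKA and CCNA2 gain one.

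Between the siFTO libraries, replicate 6 minus the mean of replicates 4 and 5 had a median of 0.02 log2 units over the members and ran from -0.43 for CENPE to 0.22 for ECT2. The summed level of the 41 genes was 6661, 6411 and 6737 CPM in siFTO cells, against 6291, 5825 and 6791 CPM in control cells, so that control replicate 3 was above every siFTO library and control replicate 2 was the lowest. Control replicate 2 was also the lowest library for every member called higher. In 19 of 41 members all 3 siFTO libraries lay above the control mean and in 12 all 3 lay below it. The share of all genes that meets this criterion was not computed, so these counts are not read as a trait of the members. By the stricter criterion, 25.8% of all genes tested had every siFTO library above every control and 25.6% below.

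With siFTO replicates 4 and 5 left out, replicate 6 alone was set against the 3 controls. A single library has no spread of its own, so effect sizes alone are given. The log2 fold change was 0.86 for ANLN, 0.70 for ECT2, 0.70 for BUB1B and 0.69 for KIF14. It was -0.59 for CDC25C, -0.59 for PTTG1, -0.50 for UBE2C, -0.34 for CCNB2 and -0.33 for KIF2C. With length removed as well, ANLN had 0.78, ECT2 0.64, BUB1B 0.69 and KIF14 0.58. CDC25C then had -0.51, PTTG1 -0.37, UBE2C -0.21, CCNB2 -0.21 and KIF2C -0.28. The values from all libraries, without length removed, were 0.98, 0.55, 0.64 and 0.71 for ANLN, ECT2, BUB1B and KIF14. They were -0.59, -0.53 and -0.21 for CDC25C, PTTG1 and UBE2C. In replicate 6 the fibroblast markers COL3A1, LUM, DCN and THY1 were at 0, while 1 of the 12 listed was at 10 CPM or more, as in control replicate 2. All 12 summed to 36.9 CPM there, against 23.9 to 25.5 CPM in the controls. The part of the fibroblast and leukocyte markers of replicates 4 and 5 in the members' values was not tested.

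Of the 9 higher calls 7, and of the 6 lower calls 3, were lost when at least 1 single library was left out. ANLN and KIF14 were called higher, and CCNB2, CDC25C and PTTG1 lower, in each of the 6 fits that left out 1 library. Without control replicate 1, 2 members were higher and 7 lower, without control replicate 2, 5 and 4, and without control replicate 3, 9 and 3. Without siFTO replicate 4, 5 were higher and 5 lower, without siFTO replicate 5, 7 and 4, and without siFTO replicate 6, 9 and 6. Calls over all genes tested also changed in these fits, from 2913 higher and 2684 lower with all libraries. Without control replicates 1, 2 and 3 in turn, 1383, 1540 and 1794 genes were higher and 1612, 1597 and 1759 lower. Without siFTO replicates 4, 5 and 6 in turn, 1702, 2137 and 3826 were higher and 1589, 2035 and 2928 lower. BUB1B, ECT2 and ASPM lost their call without control replicate 1 alone, KIF2C without control replicate 3 alone, and BUB1 without control replicate 1 or 2 or siFTO replicate 4. MKI67 lost its call without control replicate 1 or 2 or siFTO replicate 4 or 6, AURKB without control replicate 2 or 3 or siFTO replicate 4 or 5, and NUF2 without control replicate 2 or 3 or siFTO replicate 5 or 6.

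**Figure D5:**
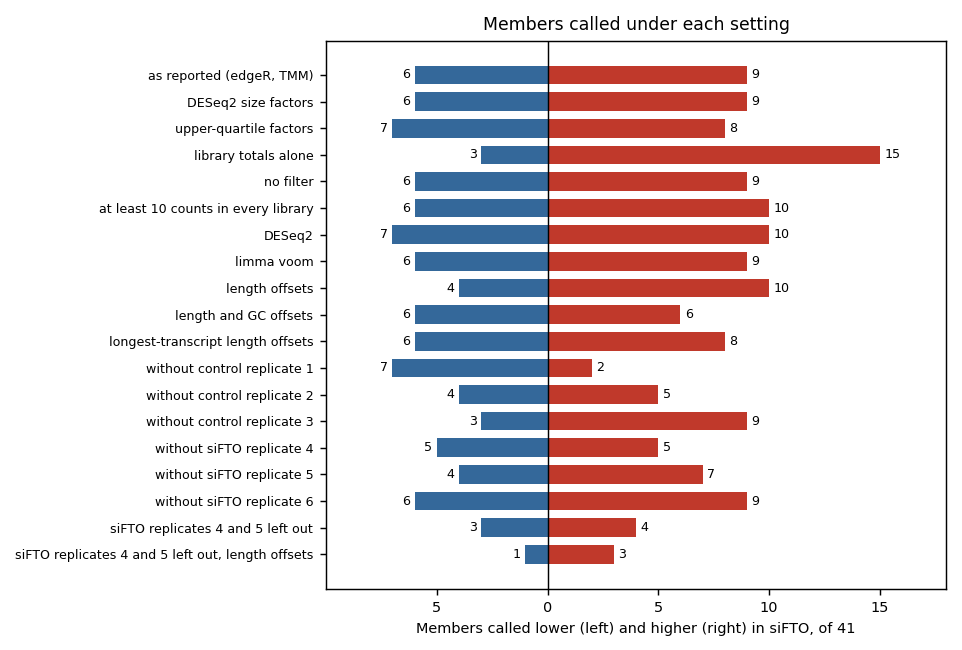
Number of the 41 members called lower (blue, left of 0) and higher (red, right of 0) in siFTO cells under each setting of the analysis. Scaling by library totals alone gave 15 higher and 3 lower members, and leaving out control replicate 1 gave 2 higher and 7 lower. Over all genes, the same settings gave 4000 higher and 1824 lower, and 1383 higher and 1612 lower.

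Further genes of mitosis, in 6 lists of 122 genes all tested, gave 32 higher and 15 lower with a median log2 fold change of 0.12, and 35 and 15 with length removed. The shares over all genes tested, against which these and the following counts are to be read, were 19.5% higher and 17.9% lower, or 18% and 16.3% with length removed. Among 18 condensin and cohesin genes, whose products fold and hold chromatids, 6 were higher and 1 was lower, with a median exonic length of 7108 bases, and with length removed 6 and none. SMC4, a condensin subunit, had 110.3, 96.7 and 98.4 CPM in siFTO cells, against 58.9, 33.3 and 61.1 CPM in control cells (log2 fold change 0.99, edgeR adjusted p = 0.00343), and NIPBL and WAPL, which load and release cohesin, each had a log2 fold change of 0.54. NCAPH2, of condensin II, was the lower one at -0.37. Of 16 centriole and centrosome genes, 7 were higher and none was lower, led by NEK7 (0.53), STIL (0.46) and CEP135 (0.45), but with length removed 4 were higher and 1 was lower.

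Of 30 other kinetochore genes, 5 were higher and 5 lower, but 10 were higher and 5 lower with length removed. ZWILCH, of the complex that brings dynein to the kinetochore, CENPI, of the inner kinetochore, and SGO2, which protects cohesin, had log2 fold changes of 0.57, 0.56 and 0.55. PMF1, of the Mis12 complex, was lower at -0.90, though its exons are shared with a read-through gene and its count is uncertain. CENPM and CENPH, both of the inner kinetochore, were lower at -0.72 and -0.65. Among 25 other kinesin and spindle genes, 7 were higher, led by CLASP2 (0.58), INCENP (0.55) and CKAP2L (0.51), and 3 were lower, HAUS1 (-0.45), KIF22 (-0.39) and NUMA1 (-0.31), with the same counts when length was removed. INCENP, the scaffold of the passenger complex, was thus higher while AURKB, which it binds and activates, was lower in the analysis without correction. Of 17 subunits and regulators of the anaphase-promoting complex, CDC27 (0.38) and ANAPC1 (0.32) were higher and 4 were lower, led by ANAPC15 (-0.63), ANAPC11 (-0.57) and CDC16 (-0.40), and with length removed 1 was higher and 4 were lower.

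Of 16 regulators of mitotic entry, 5 were higher and 2 lower, and 7 and 2 with length removed. CDC25A, the CDC25 phosphatase that also acts at the start of S phase, stood at 46.1, 49.2 and 53.3 CPM in siFTO cells, against 29.2, 29.3 and 33.9 CPM in control cells (log2 fold change 0.68, edgeR adjusted p = 0.00133). The 3 CDC25 genes therefore had log2 fold changes of 0.68 for CDC25A, -0.24 for CDC25B and -0.59 for CDC25C. CKS1B, a small subunit that binds CDK1 and CDK2, was lower at -0.54. Among 19 genes of the DREAM and MuvB complexes, MYB and E2F, 5 were higher and none was lower, led by MYBL1 (0.72), E2F8 (0.65) and RB1 (0.55). With length removed, 6 were higher and 2 lower.

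Of 8 inhibitors of the G2/M step, 7 were tested and RPRM was at 0. Of these 7, 3 were higher and 2 lower, and 4 and 3 with length removed. CDKN1A, or p21, an inhibitor of cyclin-dependent kinases, stood at 324.9, 378.8 and 319.4 CPM in siFTO cells, against 181.3, 177.4 and 160.8 CPM in control cells (log2 fold change 0.98, edgeR adjusted p = 0.000267). BTG2 (0.69) and GADD45A (0.59) were also higher, and CHEK2 (-0.42) was among the lower. Among 20 genes of S phase taken for comparison, 3 were higher, RRM2 (0.35), CDC6 (0.33) and CCNE1 (0.31), and 3 were lower, CDT1 (-0.78), MCM5 (-0.33) and CDC45 (-0.27), with a median log2 fold change of -0.06, and with length removed 4 were higher and 2 lower.

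Promoter windows of 300 bases, 250 before to 50 after the start, were matched for 34 of 41 members. AURKA, FOXM1, BUB3, TTK, BIRC5, TPX2 and UBE2C had no entry. For the CHR, only the spellings TTTGAA and TTCGAA were searched for, in the first listed window of each gene. One or the other lay on either strand in 24 of 34 windows (70.6%), against 16.4% of 35116 promoters of the same length. CCAAT lay in 25 (73.5%), against 34.6%. The letters TTTGGCGC or TTTCCCGC, known from E2F sites, lay in 2 of 34 (5.88%), against 2.27%. TTTGAA or TTCGAA was in all 8 matched members called higher, in 2 of 6 called lower (CCNB2 and NUF2) and in 14 of 20 (70%) not called. In the windows printed above, TTTGAA begins 20 bases before the start in ANLN, where a copy in the opposite direction precedes it at 26 bases, 23 bases before the start in BUB1B and 29 bases before it in CCNB2, which also holds CCAAT 4 times. PTTG1 and CCNB1 hold CCAAT but neither TTTGAA nor TTCGAA in these windows. Other spellings, such as the TTTAAA in both, were not searched for, so these promoters are not shown to lack a CHR. In PTTG1, CCAAT and its reverse, ATTGG, overlap in one run of capitals. A match of letters is a description of the window and shows no binding. The split of TTTGAA or TTCGAA between higher and lower members was seen after the calls were known and was not tested.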

How the data were processed

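RNA-seq of 3 siFTO and 3 control libraries of 253J cells, grouped by their labels, was analysed. The authors deposited counts of reads per gene, not normalized. TopHat2 2.0.11, HTSeq and both hg19 and GRCh37 appear in the submitters' processing notes. The sources used here do not give the annotation release or the strand setting. Counts were filtered (filterByExpr, minimum count 10, minimum total 15), scaled by TMM and fitted with edgeR 4.0.16 (quasi-likelihood, R 4.3.3), with the group as the only term, two-sided, Benjamini-Hochberg adjusted over the 14965 genes tested, threshold 0.05. Lengths and coordinates were those of GENCODE 29 on GRCh38, matched by ID without version, and may not be those used for counting. For the length correction, a smooth trend (lowess, span 0.3) of each library's log2 CPM minus the gene mean on log2 exonic length, and then GC content, gave gene-wise offsets, without 78 genes that had no length. Values per library are given for called members of largest change in each role, for MKI67, CENPF and ASPM and for the shortest member, UBE2C. Those of CDK1, CCNB1, CENPE, SMC4, CDC25A and CDKN1A were added after they were seen. Other lists name up to 3 called genes per direction, and 1 such gene is not reported here. The members and lists were chosen with earlier results of these data known. Calculations were tested on simulated data. Alternatives were other scalings and filters, DESeq2 1.42.0, limma 3.58.1 voom, other length offsets and leaving out libraries.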

Additional observations from a re-analysis of the deposited data

How the results depend on the processing

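Members called, the median and the further mitosis genes were recomputed under 18 alternatives. With library totals alone, where the median log2 fold change of all genes was 0.12 against 0.01 with TMM, 15 members were higher and 3 lower, the members' median was 0.15, 46 further mitosis genes were higher and 9 lower, and FTO had a log2 fold change of -0.47 (edgeR adjusted p = 0.0536). All genes then split into 4000 higher and 1824 lower, against 2913 and 2684 with TMM. Over the 6 fits without 1 library, 2 to 9 members were higher and 3 to 7 lower, and 9 to 27 further mitosis genes were higher and 9 to 14 lower. Calls over all genes ran from 1383 to 3826 higher and from 1589 to 2928 lower in those fits. FTO ran from -0.74 to -0.47, at -0.49 without control replicate 1 and without control replicate 3. With siFTO replicates 4 and 5 left out, 4 members were higher and 3 lower, and 8 and 5 further genes. With length offsets as well, these medians were 0.15 and -0.0007. FTO was at -0.82 with length offsets, -0.85 with length and GC offsets and -0.86 with offsets on the longest transcript. BUB3 turned from 0.00 to -0.24 (edgeR adjusted p = 0.0341) with offsets on the longest transcript. The causes of these shifts were not tested. DESeq2 size factors, no filter and limma voom gave 9 higher and 6 lower members, and DESeq2 gave 10 and 7. No paired analysis was made, because the labels number siFTO libraries 4 to 6 and control libraries 1 to 3 and state no pairing. The smallest changes among the members that passed at 3 libraries a group were 0.32 for PLK4 and -0.30 for NUF2, and smaller ones are not shown to be absent.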
